A study of Mus musculus with 4 samples.

Results

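Collagen chain genes encode the alpha chains that wind around each other into triple-helical trimers, the main protein of the vein wall's connective tissue. In the mouse data described here, 42 of 18820 genes had a symbol made of Col, a number, a and a number on a probe set with no other symbol. Each gene is represented by its brightest probe set over the 4 arrays, and the genes were grouped as 11 fibrillar, 6 basement membrane, 8 FACIT and 17 other chains. FACIT stands for fibril-associated collagens with interrupted triple helices. After genes under the 25th percentile of mean signal were set aside, 39 of the 42 stood among 14115 genes kept; Col4a4, Col6a4 and Col19a1 did not. Values are log2 signals per probe set, so a difference of 1 is a 2-fold difference.

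RNA came from the inferior vena cava of 4 groups of mice aged 8 to 10 weeks, all on the C57BL/6J background, with RNA of 4 mice pooled for each group and 1 array run per pool. The groups were Cd39-/- mice 48 h after ligation of the vein below the renal veins, Cd39-/- mice after sham surgery (dissection with no ligation), wild-type (WT) mice 48 h after ligation, and WT mice after sham surgery. Ligation stops or restricts the flow, and a thrombus forms. Cd39-/- mice lack CD39, the product of Entpd1, an enzyme that breaks down extracellular ATP and ADP, and they had been crossed to C57BL/6J for at least 8 generations. The sex of each pool, complete or partial ligation, and whether thrombus was part of the tissue taken for RNA are not in the labels. With 1 array per group no difference between arrays has a replicate, and its error is unknown.

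Entpd1 itself read 6.14 on the array labelled Cd39-/-, ligated, 4.16 in Cd39-/- sham, 6.17 in WT ligated and 7.11 in WT sham veins. The difference of Cd39-/- from WT was -2.95 in sham veins and -0.03 in ligated veins, which goes against the label of the first array. That array is called "the array labelled Cd39-/-, ligated" throughout. The ligation counts that use it are also given against WT sham for all collagens together and for several of the gene lists. The WT pair for ligation and the sham pair for genotype are the comparisons without it. Vein markers were present on all 4 arrays. The endothelial adhesion gene Cdh5 read 7.28 to 8.37, the smooth muscle myosin gene Myh11 read 5.54 to 9.46, and the fibroblast proteoglycan gene Dcn read 9.04 to 9.85. Background was gauged from 995 probe sets of olfactory receptors, whose 95th percentile lay between 2.67 and 2.97 on the 4 arrays. By that measure 27 collagen genes were above background on all 4 arrays, 8 on some and 7 on none (Col4a4, Col6a4, Col8a2, Col9a1, Col17a1, Col19a1 and Col25a1).

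Fibrillar collagens of types I, III and V assemble into the striated fibres of the adventitia and media, with type V chains setting fibril diameter. Type IV chains form the sheet under the endothelium and around smooth muscle cells. FACITs sit on fibril surfaces, type VI makes beaded filaments close to cells, and types XV and XVIII are proteoglycans of basement membrane zones. After injury of a vessel, fibroblasts and smooth muscle cells are the usual makers of new fibrillar collagen, while leukocyte proteases take collagen apart.

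Both type I chains and the type III chain were at least 2-fold higher in ligated veins in both ligation pairs. So were single chains of types IV, V, VI and XII. In all, 7 of 39 kept members (17.9%) were at least 2-fold higher in the Cd39-/- pair and in WT, Col1a1, Col1a2, Col3a1, Col5a2, Col4a1, Col12a1 and Col6a3. Among all genes kept the share was 3.63%. None of the 39 was at least 2-fold lower in both pairs, against 1.45% of all genes. In WT alone, 11 of 39 members (28.2%) were at least 2-fold higher after ligation, against 6.6% of all genes, and 0 were at least 2-fold lower, against 3.63%. On the array labelled Cd39-/-, ligated, 7 of 39 (17.9%) were at least 2-fold above Cd39-/- sham, against 10.9% of all genes, and 1, Col14a1, was at least 2-fold below it, against 5.8%. The median collagen difference was -0.04 there and 0.15 in WT, beside 0.03 and -0.01 over all genes. In bulk tissue, fewer cells of a type and less RNA per cell cannot be told apart. Set against WT sham in place of Cd39-/- sham, the array labelled Cd39-/-, ligated, had 1 member at least 2-fold higher, Col4a1 (2.56%, against 9.52% of all genes). It had 1 lower, Col14a1 (2.56%, against 6.58%), and the count for both pairs was 1. The split of higher against lower calls in the Cd39-/- pair, 65.3% higher as deposited, was 51.5% after quantile normalisation and 53.9% after loess.

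The test used was a limma fit with additive terms for genotype and surgery, which has 1 residual degree of freedom and takes any unequal response of the genotypes as error. With Benjamini-Hochberg adjustment over 14115 genes, no gene and no collagen passed 0.05 for ligation. At an unadjusted p under 0.05 there were 2960 genes (21.0%), among them 11 collagens higher and 1, Col6a6, lower after ligation. The lowest adjusted p of a collagen was 0.0952, shared by Col3a1, Col4a1 and Col12a1. The words higher and lower below therefore describe these 4 arrays.

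**Figure D1:**
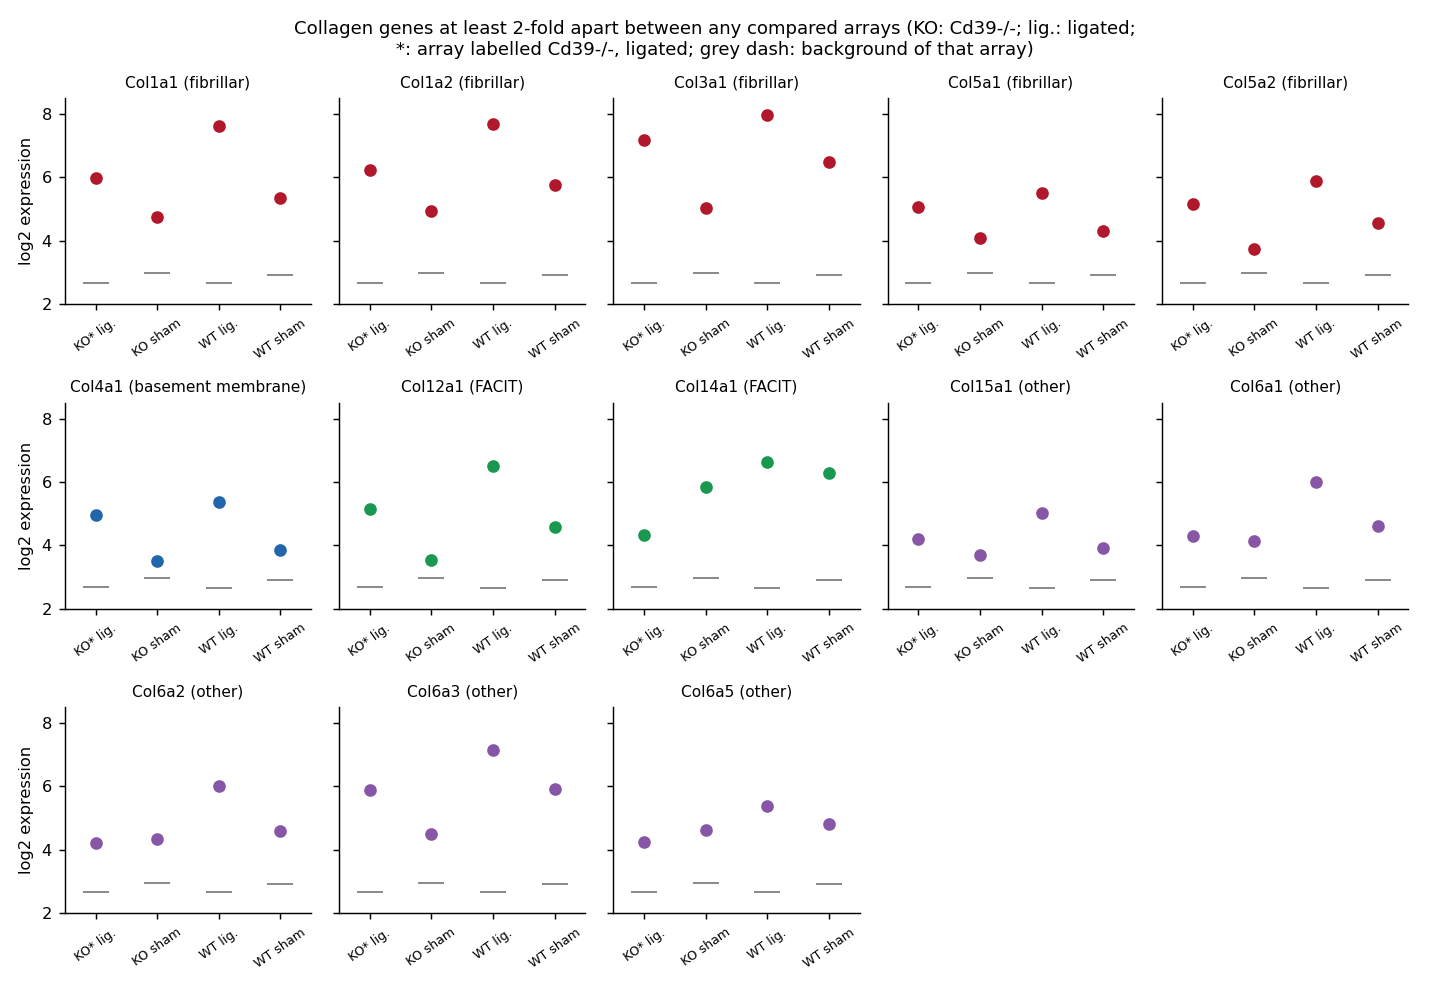
Log2 signal (vertical axes) on each of the 4 arrays for the 13 collagen genes at least 2-fold apart in any of the 4 array pairs, 1 point per array of 4 pooled mice and a grey dash at that array's background. Col1a1 reads 5.99 on the array labelled Cd39-/-, ligated, 4.76 in Cd39-/- sham, 7.61 in WT ligated and 5.34 in WT sham veins.

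Upstream sequences from RefSeq (GRCm38.p6) covered 34 of the 42 collagen genes. They are shown here for Col1a2, Col3a1 and Col6a3, which passed 2-fold in both ligation pairs, and for Col6a1, which passed it in WT alone, so that the letters can be set beside the values. Each is the 250 bases before the annotated start, 5′ to 3′ on the gene's own strand, with every match to a searched motif in capitals. Both strands were searched for 5 motifs. CCAAT is a common promoter box that bears its own letters as its name. The letters GGGCGG are bound by Sp1-like factors. The core promoter box is TATAAA. An element of the cyclic AMP and stress response type is written TGACGTG here. Last comes the AP-1 core, TGANTCA with N for any base. No matches overlap in the windows shown.
Col1a2, chr6:4505368-4505617, plus strand: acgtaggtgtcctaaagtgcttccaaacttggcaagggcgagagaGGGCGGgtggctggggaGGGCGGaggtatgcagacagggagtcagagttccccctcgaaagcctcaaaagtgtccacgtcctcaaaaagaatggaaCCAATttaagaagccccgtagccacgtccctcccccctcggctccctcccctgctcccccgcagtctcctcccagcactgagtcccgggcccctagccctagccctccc
Col3a1, chr1:45311288-45311537, plus strand: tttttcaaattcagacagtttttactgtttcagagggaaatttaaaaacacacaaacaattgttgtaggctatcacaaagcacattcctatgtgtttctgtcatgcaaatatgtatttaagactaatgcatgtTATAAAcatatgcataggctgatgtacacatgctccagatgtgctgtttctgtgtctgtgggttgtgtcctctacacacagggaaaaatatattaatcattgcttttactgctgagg
Col6a3, chr1:90843972-90844221, minus strand: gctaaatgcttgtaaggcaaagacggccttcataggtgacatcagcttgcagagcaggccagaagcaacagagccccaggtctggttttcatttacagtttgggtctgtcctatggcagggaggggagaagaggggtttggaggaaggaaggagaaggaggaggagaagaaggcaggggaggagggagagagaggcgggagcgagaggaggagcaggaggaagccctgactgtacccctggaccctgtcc
Col6a1, chr10:76726045-76726294, minus strand: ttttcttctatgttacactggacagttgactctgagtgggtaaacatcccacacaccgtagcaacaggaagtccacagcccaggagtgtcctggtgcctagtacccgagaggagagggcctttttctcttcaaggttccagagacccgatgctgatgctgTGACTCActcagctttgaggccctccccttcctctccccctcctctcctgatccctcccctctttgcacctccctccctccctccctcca

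The Col1a2 window held CCAAT 109 bases before the start and GGGCGG at 205 and 188 bases, the Col3a1 window held TATAAA at 117 bases, and the Col6a1 window held TGACTCA at 90 bases. The Col6a3 window held none of the 5 motifs. Col4a1 also passed 2-fold in both pairs, and its window, not shown, held CCAAT at 145 bases. Among all 32851 windows of this kind, CCAAT was in 33.8%, GGGCGG in 32.7%, TATAAA in 12.4%, TGANTCA in 6.75% and TGACGTG in 1.65%. Of the 34 collagen genes with a window, 12 held CCAAT, 20 GGGCGG, 5 TATAAA, 1 TGANTCA and 1 TGACGTG. The 1 with TGANTCA was Col6a1, which is shown though it passed 2-fold in WT alone. Of the 4 that were also at least 2-fold higher in both ligation pairs, 2 held CCAAT, 1 GGGCGG and 1 TATAAA. A match describes these letters and says nothing of binding.

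Col1a1 and Col1a2 encode the chains of type I collagen, the most abundant fibrillar type. Col1a1 read 5.99 on the array labelled Cd39-/-, ligated, 4.76 in Cd39-/- sham, 7.61 in WT ligated and 5.34 in WT sham veins. WT ligated stood highest and Cd39-/- sham lowest. The ligation difference was 1.23 in the Cd39-/- pair (2.34-fold) and 2.27 in WT (4.83-fold), which placed it 58th from the top of all genes kept in WT and 1037th in the Cd39-/- pair. The fitted ligation effect was 1.75 ± 0.33 (SE; limma adjusted p = 0.11). Its partner Col1a2 read 6.24 on the array labelled Cd39-/-, ligated, 4.94 in Cd39-/- sham, 7.69 in WT ligated and 5.76 in WT sham veins. The order of the 4 arrays was that of Col1a1, with ligation differences of 1.29 in the Cd39-/- pair and 1.93 in WT. In the Cd39-/- pair both type I chains were under 2-fold after quantile normalisation, at 0.91 for Col1a1 and 0.98 for Col1a2.

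Col3a1, whose homotrimer is typical of distensible vessel walls, read 7.19 on the array labelled Cd39-/-, ligated, 5.02 in Cd39-/- sham, 7.98 in WT ligated and 6.47 in WT sham veins. Here the Cd39-/- pair had the larger ligation difference, 2.17 (4.50-fold), against 1.51 (2.85-fold) in WT, and the lowest array was again Cd39-/- sham. Against WT sham, the array labelled Cd39-/-, ligated, was higher by 0.72. Col5a2, a type V chain, read 5.16 on the array labelled Cd39-/-, ligated, 3.74 in Cd39-/- sham, 5.88 in WT ligated and 4.56 in WT sham veins. Both ligated arrays stood above both sham arrays, with ligation differences of 1.42 in the Cd39-/- pair and 1.32 in WT. Col3a1 and Col5a2 are next to each other among protein-coding genes on chromosome 1.

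Col5a1, the other main type V chain, read 5.05 on the array labelled Cd39-/-, ligated, 4.08 in Cd39-/- sham, 5.51 in WT ligated and 4.30 in WT sham veins. Its ligation difference of 0.98 in the Cd39-/- pair (1.97-fold) was just short of 2-fold, and that in WT was 1.22 (2.32-fold). A dimmer Col5a1 probe set gave 0.41 in the Cd39-/- pair and 0.64 in WT, so the 2 probe sets disagree on the 2-fold call. The other 6 fibrillar genes stayed dim. Among them, Col2a1, Col11a1, Col11a2 and Col24a1, which belong mainly to cartilage and bone, read between 2.23 and 3.24. Col5a3 read 3.21 on the array labelled Cd39-/-, ligated, 3.20 in Cd39-/- sham, 3.57 in WT ligated and 3.30 in WT sham veins, and Col27a1 read 3.02 to 3.44. The median ligation difference over the 11 fibrillar genes was 0.50 in the Cd39-/- pair and 0.27 in WT, with 4 and 5 genes at least 2-fold higher.

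**Figure D2:**
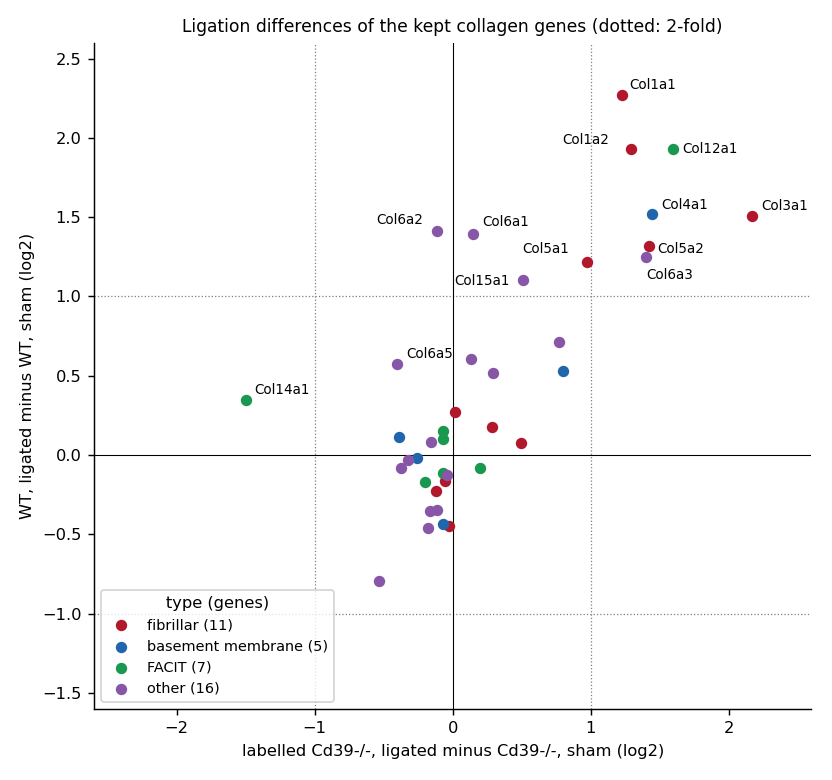
Ligation difference (log2) in the Cd39-/- pair (horizontal) against that in WT (vertical) for the 39 kept collagen genes, 1 point per gene, coloured by group, dotted lines at 2-fold. The 7 genes in the upper right corner are at least 2-fold higher in both pairs, while Col6a1 (0.15 and 1.40) and Col6a2 (-0.11 and 1.41) lie near 0 on the horizontal axis.

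Type IV chains form the basement membrane network, in which Col4a1 and Col4a2 make the common trimer. Col4a1 read 4.96 on the array labelled Cd39-/-, ligated, 3.51 in Cd39-/- sham, 5.38 in WT ligated and 3.86 in WT sham veins. Both ligated arrays stood above both sham arrays, and the differences of 1.45 in the Cd39-/- pair and 1.52 in WT were of like size. Against WT sham the array labelled Cd39-/-, ligated, was higher by 1.10, so Col4a1 was the 1 member at least 2-fold higher in that setting. Col4a2 read 4.24 on the array labelled Cd39-/-, ligated, 3.44 in Cd39-/- sham, 4.64 in WT ligated and 4.11 in WT sham veins. Its order over the arrays was that of Col4a1, with smaller differences of 0.80 in the Cd39-/- pair and 0.53 in WT. Col4a1 and Col4a2 lie head to head on chromosome 8. RefSeq (GRCm38.p6) starts Col4a1 at 11312826 on the minus strand and Col4a2 at 11312805 on the plus strand, so the annotated starts overlap by 22 bases. That stretch is shown because 1 start region serves genes whose ligation differences were unequal here. Motifs are not marked by capitals in it, and its letters include GGGCGG.
Col4a1 and Col4a2 starts, chr8:11312805-11312826, plus strand: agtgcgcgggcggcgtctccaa
The remaining type IV chains, Col4a3, Col4a5 and Col4a6, which form kidney and lung networks among others, read 2.21 to 3.29 and stayed within 2-fold in every pair.

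Among FACITs, Col12a1 and Col14a1 went different ways. Col12a1, which coats type I fibrils in tissue under load, read 5.15 on the array labelled Cd39-/-, ligated, 3.55 in Cd39-/- sham, 6.51 in WT ligated and 4.58 in WT sham veins. Both ligated arrays stood above both sham arrays, by 1.60 in the Cd39-/- pair (3.03-fold) and 1.93 in WT (3.81-fold). The fitted ligation effect was 1.77 ± 0.23 (SE; limma adjusted p = 0.0952). Col14a1, a regulator of early fibril growth and a usual marker of adventitial fibroblasts, read 4.33 on the array labelled Cd39-/-, ligated, 5.83 in Cd39-/- sham, 6.63 in WT ligated and 6.28 in WT sham veins. The array labelled Cd39-/-, ligated, stood alone at the low end, 2.83-fold below Cd39-/- sham, while WT ligated was 0.35 above WT sham. The other 5 kept FACITs, Col9a1, Col9a2, Col16a1, Col20a1 and Col22a1, read 2.54 to 3.62 and stayed within 2-fold in every pair.

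Type VI chains did not share 1 ligation pattern. Col6a1 read 4.28 on the array labelled Cd39-/-, ligated, 4.13 in Cd39-/- sham, 5.99 in WT ligated and 4.60 in WT sham veins. Only WT ligated stood apart, 1.40 above WT sham (2.63-fold), and the Cd39-/- pair differed by 0.15. Col6a2, its neighbour on chromosome 10 and its partner in the trimer, read 4.22 on the array labelled Cd39-/-, ligated, 4.33 in Cd39-/- sham, 6.01 in WT ligated and 4.60 in WT sham veins. It had the same pattern, with -0.11 in the Cd39-/- pair and 1.41 in WT. Col6a3, the large chain that joins them, did not. It read 5.90 on the array labelled Cd39-/-, ligated, 4.49 in Cd39-/- sham, 7.16 in WT ligated and 5.91 in WT sham veins, which gives ligation differences of 1.40 in the Cd39-/- pair and 1.25 in WT. The array labelled Cd39-/-, ligated, and WT sham were level for Col6a3, at a difference of -0.01. The difference between the responses of the genotypes was not tested for any of these genes, since the design leaves no error for it.

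Col6a5, a further type VI chain, read 4.23 on the array labelled Cd39-/-, ligated, 4.64 in Cd39-/- sham, 5.39 in WT ligated and 4.81 in WT sham veins. Its ligation differences were below 2-fold, at -0.40 in the Cd39-/- pair and 0.58 in WT. Col6a6 read 2.77 on the array labelled Cd39-/-, ligated, 3.30 in Cd39-/- sham, 2.97 in WT ligated and 3.77 in WT sham veins, the one collagen with a lower ligated signal at an unadjusted p under 0.05. Col15a1, whose type XV product anchors basement membranes to the underlying matrix, read 4.20 on the array labelled Cd39-/-, ligated, 3.69 in Cd39-/- sham, 5.02 in WT ligated and 3.92 in WT sham veins. Its WT difference of 1.10 was the smallest past 2-fold, and the next member below it was Col18a1 at 0.71. Col18a1, the source of the endostatin fragment, was higher by 0.77 in the Cd39-/- pair. The bright network collagen Col8a1, a product of vascular cells, read 6.24 on the array labelled Cd39-/-, ligated, 5.95 in Cd39-/- sham, 7.12 in WT ligated and 6.61 in WT sham veins, within 2-fold in every pair. The 4 transmembrane collagens Col13a1, Col17a1, Col23a1 and Col25a1, and Col8a2, Col10a1, Col26a1 and Col28a1, read 2.20 to 3.85. Over the 26 members with no 2-fold difference in any pair, ligation differences ran from -0.54 to 0.80 in the Cd39-/- pair and from -0.79 to 0.71 in WT.

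In sham veins, where Entpd1 bears out the labels, 34 of 39 collagens (87.2%) were lower in Cd39-/- than in WT, against 56.7% of all genes kept. On the array labelled Cd39-/-, ligated, whose Entpd1 was level with WT ligated, 34 of 39 were also below WT ligated, against 54.2% of all genes. In both pairs, which share no array, 32 were below WT, against 32.6% of all genes. All 11 fibrillar genes were below WT in the sham pair and 10 in the ligated pair. In sham veins 3 of 39 members (7.69%), Col3a1, Col6a3 and Col12a1, were at least 2-fold lower in Cd39-/-, against 3.54% of all genes, and 0 were higher, against 2.95%. In ligated veins 8 of 39 (20.5%) were at least 2-fold lower on the array labelled Cd39-/-, ligated, against 2.66% of all genes, and 0 were higher, against 3.61%. The median collagen difference was -0.30 in sham and -0.36 in ligated veins, beside -0.07 and -0.03 over all genes. After loess, the split of all genes in sham veins was 58.4% higher against 45.5% as deposited. In the same limma fit no gene passed 0.05 for genotype. At an unadjusted p under 0.05 there were 979 genes (6.94%), with 9 collagens lower and 0 higher on the arrays labelled Cd39-/-, and the lowest adjusted p of a collagen was 0.667. Without the array labelled Cd39-/-, ligated, only the sham pair is left, which has no test.

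Col6a3 and Col12a1 were at least 2-fold below WT both on the array labelled Cd39-/-, ligated, and in Cd39-/- sham. For Col6a3 the difference from WT was -1.26 in the ligated pair and -1.41 in the sham pair. For Col12a1 the differences were -1.36 in the ligated pair and -1.03 in the sham pair, the second of which was -0.92 after loess. Col3a1 differed more in sham veins, at -1.45, than in ligated veins, at -0.79. The remaining 6 genes past 2-fold in ligated veins were Col14a1 (-2.30, 4.91-fold lower), Col6a2 (-1.79), Col6a1 (-1.71), Col1a1 (-1.62), Col1a2 (-1.45) and Col6a5 (-1.16). Col14a1 ranked 19th from the bottom of 14115 genes in that pair. Of the 5 kept type VI genes, 4 were at least 2-fold lower there, against 1 in sham veins. The Col6a5 value rests on its brighter probe set; a second one read 3.25 on the array labelled Cd39-/-, ligated, and 3.34 in WT ligated.

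**Figure D3:**
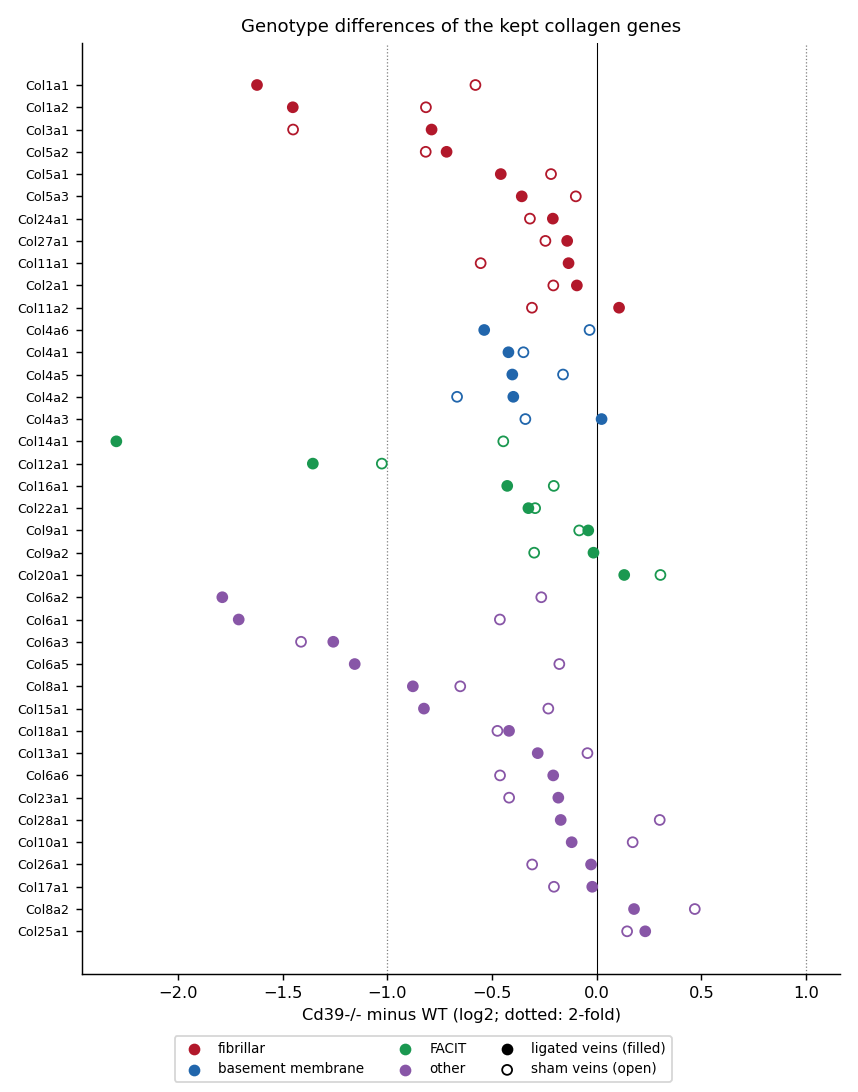
Genotype difference, Cd39-/- minus WT (log2), for the 39 kept collagen genes, 1 row per gene, with filled circles for ligated and open circles for sham veins and dotted lines at 2-fold. In each surgery 34 of 39 genes lie left of 0, and Col14a1 lies farthest left, at -2.30 in ligated veins.

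For the 13 collagens at least 2-fold apart in any pair, the array labelled Cd39-/-, ligated, was also set against WT sham. It lay between WT sham and WT ligated for Col1a1, Col1a2, Col3a1, Col5a1, Col5a2, Col4a1, Col12a1 and Col15a1. It was higher than WT sham by 0.65 for Col1a1, 0.48 for Col1a2, 0.76 for Col5a1, 0.60 for Col5a2, 0.57 for Col12a1 and 0.28 for Col15a1. For Col6a1, Col6a2, Col6a3, Col6a5 and Col14a1 the differences were -0.31, -0.38, -0.01, -0.58 and -1.95. The 2-fold count in the Cd39-/- pair therefore depended on which sham array it was set against.

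**Figure D4:**
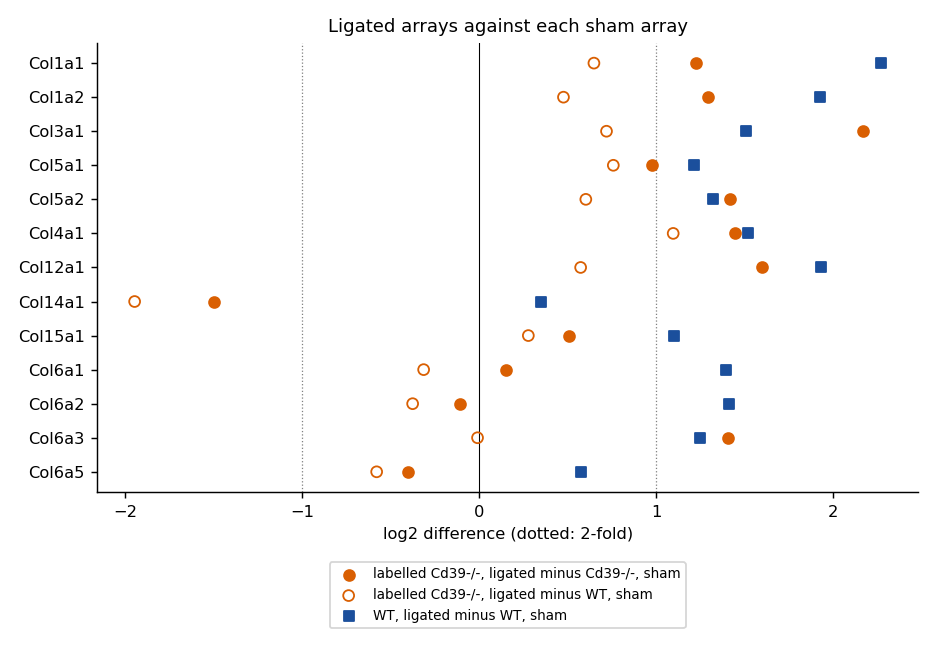
Log2 difference (horizontal) of the array labelled Cd39-/-, ligated, from Cd39-/- sham (filled circles) and from WT sham (open circles), and of WT ligated from WT sham (squares), for the 13 collagen genes at least 2-fold apart in any pair. Against Cd39-/- sham Col3a1 is higher by 2.17, and against WT sham by 0.72.

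Several genes whose products build and cross-link collagen were higher after ligation. Of 21 kept synthesis enzymes and chaperones, 12 (57.1%) were at least 2-fold higher in the Cd39-/- pair and 8 (38.1%) in WT, with medians of 1.09 and 0.90, against 10.9% and 6.6% of all genes. Set against WT sham, 4 of the 21 (19.0%) were at least 2-fold higher on the array labelled Cd39-/-, ligated, against 9.52% of all genes. The list includes Creb3l1, a transcription factor of collagen secretion, at 1.90 in the Cd39-/- pair and 2.36 in WT, and the lysyl hydroxylase Plod1 at 1.96 and 1.43. The prolyl hydroxylase subunit P4ha3 read 5.21 in WT ligated and was not above background in either sham pool. It read 2.18 in Cd39-/- sham and 2.91 in WT sham, the second just under that array's background of 2.92. On the array labelled Cd39-/-, ligated, it read 2.78, near that array's background of 2.68. Of 12 kept processing and cross-linking genes, 4 (33.3%) were at least 2-fold higher in each pair, and 3 in both pairs. At least 2-fold lower were 1 (8.33%) in the Cd39-/- pair, against 5.8% of all genes, and 2 (16.7%) in WT, against 3.63%. Set against WT sham, 1 (8.33%) was at least 2-fold higher on the array labelled Cd39-/-, ligated, under the 9.52% of all genes. Higher in both pairs were the procollagen C-proteinase Bmp1 (1.63 in the Cd39-/- pair and 1.69 in WT) and the cross-linking oxidases Lox (2.15 and 1.39) and Loxl2 (2.08 and 1.61). The proteinase enhancer Pcolce2 was lower in both, at -1.14 and -1.39.

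Of 18 fibril-binding partners, 4 (22.2%) were at least 2-fold higher and 6 (33.3%) lower in the Cd39-/- pair, against 10.9% and 5.8% of all genes. In WT 4 (22.2%) were higher and 1 (5.56%) lower, against 6.6% and 3.63%. Against WT sham, 1 (5.56%) was higher and 8 (44.4%) lower on the array labelled Cd39-/-, ligated, against 9.52% and 6.58% of all genes. The small proteoglycan gene Ogn was at -3.42 in the Cd39-/- pair and -1.51 in WT, whereas Cthrc1, a secreted protein of activated fibroblasts, was higher by 2.17 and 1.82. On the array labelled Cd39-/-, ligated, 10 of these 18 (55.6%) were at least 2-fold below WT ligated, against 2.66% of all genes, and in the sham pair 5 (27.8%) were below WT, against 3.54%. Of 8 kept collagen-degrading enzymes, 4 (50.0%) were at least 2-fold higher in each pair, against 10.9% of all genes in the Cd39-/- pair and 6.6% in WT. Only 2 of the 8, Mmp14 and Ctsl, were higher by that much in both pairs. Set against WT sham, 4 (50.0%) were at least 2-fold higher on the array labelled Cd39-/-, ligated, against 9.52% of all genes. The membrane collagenase Mmp14 was higher by 2.22 in the Cd39-/- pair and 1.92 in WT, and the neutrophil collagenase Mmp8 by 2.08 in the Cd39-/- pair with -0.11 in WT. Of 14 basement membrane partners, 0 were at least 2-fold higher in the Cd39-/- pair and 1 (7.14%) in WT, the perlecan gene Hspg2 (0.79 and 1.05), a share near that of all genes. Collagen receptors had 4 of 12 (33.3%) at least 2-fold higher in the Cd39-/- pair, against 10.9% of all genes. In WT there were 3, against 6.6%. The array labelled Cd39-/-, ligated, had 3 at least 2-fold above WT sham, against 9.52% of all genes. Just 1 receptor, Lair1, was higher by that much in both pairs, at 1.25 in the Cd39-/- pair and 1.77 in WT. Itga2 (2.43 and -0.96), Adgrg1 (2.05 and -0.39) and Itgb1 (1.08 and -0.20) were higher in the Cd39-/- pair and lower in WT. Mrc1 (0.37 and 2.11) and Mrc2 (0.51 and 1.07) passed 2-fold in WT alone. Of 24 kept proteins that carry a collagen-like domain but are no collagens, 2 (8.33%) were at least 2-fold higher in the Cd39-/- pair, under the 10.9% of all genes, and 5 (20.8%) in WT, against 6.6%. The macrophage scavenger receptor Msr1 was at 3.78 in the Cd39-/- pair and 2.70 in WT.

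**Figure D5:**
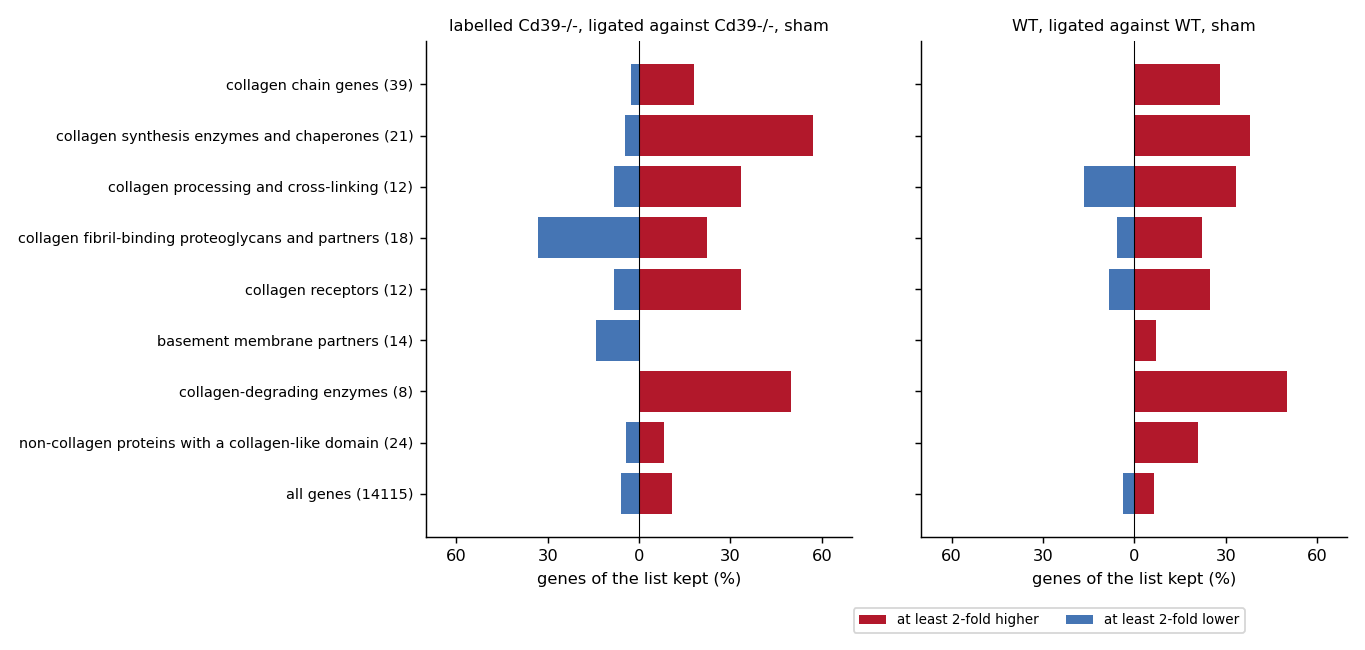
Percent of kept genes at least 2-fold higher (red, right of 0) or lower (blue, left of 0) after ligation for each gene list and for all genes, with the Cd39-/- pair in the left panel and the WT pair in the right. Collagen synthesis enzymes and chaperones stand at 57.1% in the Cd39-/- pair and 38.1% in WT, against 10.9% and 6.6% of all genes.

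Cell type markers moved between the same arrays, and their part in the collagen values was not tested. For the counts below, the shares of all genes kept at least 2-fold apart were as follows. After ligation 10.9% were higher and 5.8% lower in the Cd39-/- pair, and 6.6% and 3.63% in WT. Between genotypes 2.95% were higher and 3.54% lower than WT in sham veins, and 3.61% and 2.66% in ligated veins. The 8 activated fibroblast markers had medians of 7.36 on the array labelled Cd39-/-, ligated, 4.62 in Cd39-/- sham, 8.31 in WT ligated and 5.48 in WT sham veins. Of these 8, 4 were at least 2-fold higher in each ligation pair. The median of their gene-by-gene ligation differences was 0.98 in the Cd39-/- pair and 0.75 in WT, less than the medians of levels imply. The 11 fibroblast markers, which include Col14a1, had medians of 6.38, 6.81, 6.63 and 7.46 in the same order. The median of their gene-by-gene ligation differences was -0.81 in the Cd39-/- pair and -0.33 in WT. Of these 11, 4 were at least 2-fold lower on the array labelled Cd39-/-, ligated, than in WT ligated. Of 10 smooth muscle and pericyte markers, 6 were at least 2-fold below WT in the sham pair and 6 in the ligated pair. All 10 endothelial markers were lower in Cd39-/- sham than in WT sham, with a median difference of -1.04, and 8 of them were at least 2-fold lower in WT ligated than in WT sham, against 1 in the Cd39-/- pair. Neutrophil markers, 6 of 7 on the array, had medians of 8.99 on the array labelled Cd39-/-, ligated, 7.27 in Cd39-/- sham, 6.32 in WT ligated and 5.45 in WT sham veins, and all 6 were at least 2-fold higher in the ligated pair of genotypes. Platelet markers, 7 of 8 on the array, had a median of 8.56 on the array labelled Cd39-/-, ligated, against 3.24 to 4.76 on the others. Of 7 adipocyte markers, 6 were at least 2-fold higher in Cd39-/- sham than in WT sham, led by the brown fat gene Ucp1 (9.71 against 4.14). Macrophage markers had medians of 7.14 on the array labelled Cd39-/-, ligated, 5.11 in Cd39-/- sham, 7.07 in WT ligated and 4.90 in WT sham veins. The cartilage gene Acan read 1.96 to 2.58.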

How the data were processed

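Total RNA was extracted with Trizol, amplified to cDNA with a whole-transcriptome kit, biotinylated and hybridised to Affymetrix arrays, per the labels' protocols. The authors deposited log2 signals, 1 per probe set, computed by RMA with the oligo package according to the submitters' processing notes, which give no versions here. RMA normalises the arrays to one another, so a global shift in RNA content would be hidden. They were used as deposited. Arrays have no read depth, and precision is limited by their number.

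Of 35556 probe sets, 21218 had 1 gene symbol in the platform annotation, 1881 several and 12457 none. The brightest probe set stood for each of 18820 genes, and genes with a mean at or above the 25th percentile (2.29) were kept. Collagen chains had 46 probe sets. Col7a1 and Col9a3 share a symbol field with another gene and were left out; their probe sets read 2.82 to 3.47 with no 2-fold difference.

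Differences between arrays carry no test and were called at 2-fold. limma 3.58.1 (lmFit, eBayes) in R 4.3.3 fitted genotype and ligation with Benjamini-Hochberg adjustment over all genes kept, and was tested on simulated data. The members, the gene lists and the marker lists were chosen with earlier results of these data known. Every collagen could be named, with values on each array where any pair was 2-fold apart, and up to 8 genes of each other list, those with the largest mean ligation difference in size; marker genes, Entpd1 and single examples of tissue identity were also named.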

Additional observations from a re-analysis of the deposited data

Results flagged for a closer look

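For 8 of 39 collagens the ligation difference had opposite signs in the Cd39-/- pair and in WT, and for 2 of them it was also at least 2-fold in 1 of the pairs. By sign, 17 of the 39 were higher in both pairs and 14 lower in both. Of 14115 genes kept, 4904 were higher in both and 4749 lower in both, so opposite signs were not particular to collagens. Col14a1 was lower after ligation in the Cd39-/- pair and higher in WT, and the Cd39-/- minus WT difference of ligation differences was -1.85 (log2). Col6a2 was -0.11 in the Cd39-/- pair and 1.41 in WT, a difference of -1.52. Each rests on 4 arrays with no replicate, and neither difference was tested.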

How the results depend on the processing

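Alternatives were quantile normalisation, loess, median centring, the median of a gene's probe sets, no filter or a 50th percentile filter, a 1.5-fold call, other limma settings and leaving out or replacing arrays. Against WT sham in place of Cd39-/- sham, 1 collagen was at least 2-fold higher on the array labelled Cd39-/-, ligated, and 1 in both pairs, against 7 each. Without that array, the WT pair alone had 11. At 1.5-fold, 1 was lower after ligation in WT (0 at 2-fold) and 7 were lower in Cd39-/- sham than WT sham (3 at 2-fold). Elsewhere the collagen counts stayed within 1.5 times. Of 90 member differences recomputed under the 3 scalings, 85 stayed past 2-fold, 5 were under it and 0 reversed; both that the median of probe sets could move were under it. The 7 were Col1a1 in the Cd39-/- pair (0.91 after quantile normalisation, 0.97 after loess), Col1a2 (0.98), Col12a1 in sham veins (-0.92 after loess), Col15a1 in WT (0.996 after quantile normalisation), and Col5a1 in WT (0.93) and Col6a5 in ligated veins (-0.62) by the median of probe sets. An alternative chosen after seeing the data set the gene lists against WT sham, which gave 4 of 21 synthesis genes in place of 12. It gave 1 processing gene in place of 4 and 1 fibril-binding partner in place of 4. Activated fibroblast markers had 2 in place of 4, and smooth muscle markers 0 in place of 1. Neutrophil markers rose, to 5 in place of 3. No limma setting called a collagen; the lowest adjusted p ran from 0.0898 to 0.275. No paired analysis was possible because each group has 1 array. Members near background have differences limited by it.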
